A study of Mus musculus with 36 samples.

Results

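The genes described here are 8 members of the transforming growth factor beta (TGF-beta) pathway: the ligands Tgfb1, Tgfb2 and Tgfb3, the receptors Tgfbr1, Tgfbr2 and Tgfbr3, and the matrix genes Tgfbi and Ltbp2. They were chosen by symbol among 20719 nuclear genes listed in single-cell count tables of the injured mouse heart. The cells were isolated from the infarcted left ventricle, and the mice were C57BL/6 males aged 8 weeks that had undergone sham surgery, ischemia-reperfusion (IR), in which the left anterior descending artery was tied for 1 hour, or myocardial infarction (MI), in which it was tied permanently. The groups were sham day 1 (4 plates), sham day 14 (8), IR day 1 (9), IR day 3 (7), IR day 14 (3) and MI day 3 (5). Single cells were sorted into the wells of the plates and measured by SORT-seq, which counts transcripts by unique molecular identifiers (UMIs). The mouse behind each plate is not given in the sources used here. MI plates outnumber the MI mice described, so at least some MI plates share a mouse and others may, and the p-values below measure the spread between plates only. All MI plates carried a protocol label of their own, so that label and the MI group cannot be told apart, and a sham group of day 3 was not analysed here.

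TGF-beta ligands are secreted as inactive complexes that are held in the matrix by latent TGF-beta binding proteins and released by integrins and proteases. Active ligand binds the kinase receptor encoded by Tgfbr2, which recruits the kinase receptor encoded by Tgfbr1 and starts SMAD signaling, while Tgfbr3 encodes betaglycan, a co-receptor that presents ligand. In the infarcted heart the pathway is known for its role in fibroblast activation, matrix deposition and scar formation. Tgfbi encodes an adhesive matrix protein that was named for its induction by TGF-beta, and Ltbp2 encodes a microfibril protein of the latent TGF-beta binding protein family.

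The plates held between 176614 and 5551870 UMIs, of which 12.38% to 26.08% were mitochondrial on MI plates and 22.69% to 81.88% elsewhere. Of 13824 wells, 2843 had at least 1000 UMIs from nuclear genes. Among these, 19 were copies of the well at the same position of a deeper plate and were left out. The tables of sham day 14 replicates 2 and 7 held the same cells and were counted as 1 sample, which left 2799 wells. Wells were clustered without the 8 genes, and clusters were named from marker lists: 961 wells were like cardiomyocytes, 610 like macrophages, 383 like endothelial cells, 319 like fibroblasts, 157 like neutrophils, 20 like mural cells and 12 like erythrocytes, while 337 wells stayed unnamed. They are called by these names below, although no protein marker was measured. Kept MI wells had a median of 14513 UMIs against 2270 to 3166 in the other groups, so levels in MI rest on more molecules.

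The same class was filled by different clusters in different groups. Of 132 MI fibroblasts, 131 belonged to a cluster led by Cxcl5, Timp1 and Tnc, which also held 42 of 52 fibroblasts of IR day 1. Of 66 fibroblasts of IR day 3, 50 belonged to a second cluster, led by Htra3, Pi16 and Gsn, as did all 43 sham fibroblasts and all 26 of IR day 14. Macrophages of IR day 1 were mostly (94 of 113) in a cluster whose leading genes included Saa3 and Ccr2 and those of IR day 3 mostly (159 of 192) in one led by Gpnmb and Ms4a7, while MI macrophages were split, with 171 and 98 of 272. Of 56 MI endothelial cells, 49 were in a cluster led by Mest, Apln and Prnd, and 2 in a cluster led by Cd300lg, which held 78 of the sham day 1 and 50 of the sham day 14 cells against 20 and 19 in the former. Of 23 MI cardiomyocytes, 21 were in a cluster led by Sprr1a, Nppa and Nmrk2, which held 142 of 238 at IR day 3, 9 at sham day 1 and 3 at sham day 14. The comparisons below are thus partly between different clusters of a class. Another 152 MI wells lay in an unnamed cluster with a median of 1496.5 UMIs, in which 4 fibroblast markers were raised.

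Levels are given as CPM, the UMIs of a gene per 1000000 nuclear UMIs of the wells of that class on a plate, for plates with at least 5 such wells. Pooled levels add all wells of a class and group and carry an exact Poisson 95% interval, which covers counting error only. In these sums, fewer transcripts per cell and fewer cells with the transcript look the same. Comparisons between groups within a class used edgeR's quasi-likelihood test on the sums per plate, with Benjamini-Hochberg adjustment over all genes tested and a threshold of 0.05. Sham stands for the day 1 and day 14 groups weighted equally on the log scale, and standard errors (SE) of log2 fold changes follow from the F statistic. The fold changes from edgeR include scaling of the libraries by TMM and CPM do not, so their sizes can differ. Differences in level between classes were not tested and are described only, and whether a change between groups differed between classes was tested as an addition after seeing the data.

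Tgfb1 (GRCm38 chr7:25687002-25705077, plus strand) encodes TGF-beta 1, the ligand best known in wound repair. Of its 722 UMIs, 56.37% were in macrophages, 27.15% in fibroblasts and 11.77% in endothelial cells, against 0.55% (4 UMIs in 961 wells) in cardiomyocytes. At MI day 3 the pooled level was 43.0 CPM (38.5 to 48.0) in macrophages, 42.1 (31.0 to 55.8) in endothelial cells and 24.4 (20.9 to 28.4) in fibroblasts. The first and second intervals overlapped, and the plate values of all 3 classes did. Cardiomyocytes had no Tgfb1 UMI in MI, which allows up to 13.3 CPM at 3 UMIs.

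In macrophages, Tgfb1 was lower at IR day 3 than at IR day 1 and at MI day 3. The 9 plates of IR day 1 had a lowest value of 0, a median of 38.0 and a highest of 82.7 CPM, and the 6 plates of IR day 3 had 0, 35.7, 8.18, 49.5, 62.0 and 4.75. The 5 MI plates had 43.3, 35.2, 53.1, 37.7 and 52.9. The IR day 3 plates overlapped both other groups. Its low values were those of replicates 4 and 7, which held 81 and 69 of its 192 macrophages, and of replicate 1 with 6. The Tgfb1 log2 fold change was -1.92 ± 0.47 (SE) for IR day 3 against IR day 1 (adjusted p 0.0030) and 1.87 ± 0.42 for MI against IR day 3 (adjusted p 0.00233). Without IR day 3 replicate 4 neither passed (log2 -1.47, adjusted p 0.0821, and 1.44, adjusted p 0.12), and without replicate 7 the second did not (1.45, adjusted p 0.0806). Neither passed with DESeq2 (-1.34, adjusted p 0.0933, and 1.27, adjusted p 0.189) or with wells thinned to 3000 UMIs (-1.25, adjusted p 0.319, and 1.42, adjusted p 0.267), and the first did not with only these groups in the fit (-1.63, adjusted p 0.0602). The second did not pass with replicate number as a block.

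Tgfb1 was also higher in endothelial cells of MI day 3 than of sham. The 4 MI plates had 46.3, 28.2, 52.1 and 54.3 CPM, the sham day 1 plates 35.3, 18.6, 13.2 and 19.8, and the sham day 14 plates 14.3, 0, 0 and 0. Only MI replicate 2 fell within the sham range. The Tgfb1 log2 fold change was 1.92 ± 0.62 (adjusted p 0.0187). The call was lost without MI replicate 1 (1.88, adjusted p 0.0515) or 4 (1.80, adjusted p 0.0535), against day 1 sham alone (1.17, adjusted p 0.244), with DESeq2 (1.75, adjusted p 0.0749) and with thinned wells (2.31, adjusted p 0.119). Macrophage markers in these MI wells stood at 5.826% of their level in macrophages, a share at which macrophage RNA would carry 2.51 CPM of Tgfb1 against the 43.5 measured. This share is an average over macrophages alone, and the source of Tgfb1 in these wells was not tested. In fibroblasts the MI plates had 17.9, 10.9, 41.0, 14.7 and 33.0 CPM of Tgfb1 and sham 33.6, 15.1, 0 and 0, from 2 UMIs, and the difference did not pass (adjusted p 0.239).

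Tgfb2 (chr1:186622792-186705989, minus strand) encodes TGF-beta 2, a ligand that depends on betaglycan for efficient binding. Fibroblasts held 65.68% of its 813 UMIs and cardiomyocytes 21.77%, whereas macrophages held 1.85%. Fibroblast plates had 33.6, 106, 252 and 122 CPM in sham, 70.1, 0, 14.6, 28.4 and 0 at IR day 1, 64.0, 72.3, 101 and 78.5 at IR day 3, and 60.8, 46.7, 76.2, 57.6 and 77.4 at MI day 3. All IR day 3 plates but replicate 3 lay above every IR day 1 plate. The Tgfb2 log2 fold change of 1.47 ± 0.54 between these days did not pass (adjusted p 0.0684). It passed without IR day 1 replicate 3 (2.45, adjusted p 0.00498), with DESeq2 (1.54, adjusted p 0.0253) and with no filter beyond 1 UMI (1.45, adjusted p 0.0412).

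In cardiomyocytes Tgfb2 was higher at IR day 3 than in sham, although the change did not differ from that in fibroblasts past the threshold (log2 difference 2.31, adjusted p 0.52). Sham plates had 5.02, 39.3, 15.8 and 21.1 CPM at day 1 and 0, 30.4, 12.6 and 18.5 at day 14. IR day 3 plates had 71.6, 0, 0 and 89.5 CPM, and IR day 14 plates 37.1, 47.6 and 93.8. Of the IR day 3 plates, replicates 4 and 7, with 131 and 72 wells, were above all sham plates and replicates 5 and 6, with 13 and 16 wells, had no UMI. The Tgfb2 log2 fold change at IR day 3 against sham was 1.85 ± 0.51 (adjusted p 0.0113). The call was lost without IR day 3 replicate 4 (1.51, adjusted p 0.268) or 7 (1.58, adjusted p 0.142), without sham day 14 replicate 1 (1.62, adjusted p 0.0587), against day 1 sham (1.46, adjusted p 0.148) or day 14 sham alone (2.25, adjusted p 0.0551) and with DESeq2 (1.36, adjusted p 0.712). It was also lost with replicate number as a block. All 3 IR day 14 plates were above the sham day 14 plates, but the Tgfb2 difference did not pass (2.49 ± 0.69, adjusted p 0.115). Fibroblast markers stood at 4.429% and 2.26% of their fibroblast level in cardiomyocytes of IR day 3 and day 14, shares at which fibroblast RNA would carry 3.34 and 0.68 CPM of Tgfb2 against the 67.7 and 56.7 measured. The source of Tgfb2 in these wells was not tested.

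The highest Tgfb2 level in cardiomyocytes was on IR day 1 plates, for which no test had been planned. They had 902, 70.0, 312, 0 and 0 CPM, from 5 to 14 wells each, and 17 of their 28 UMIs were on the first of these plates, so no pooled level is given. The pooled sham levels were 18.0 (8.99 to 32.2) at day 1 and 10.5 (3.40 to 24.4) at day 14. At MI day 3 the plates had 0, 0 and 26.6 CPM of Tgfb2 and the difference from sham, a ratio of 0.705 from 2 UMIs (exact interval 0.0786 to 3.00), did not pass (adjusted p 0.579).

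Tgfb3 (chr12:86056745-86079041, minus strand) encodes TGF-beta 3. Fibroblasts held 75.28% of its 797 UMIs, cardiomyocytes 7.28%, macrophages 6.65% and the 20 mural wells 4.77%. Sham fibroblast plates had 0, 45.3 and 0 CPM at day 1 and 122 on the day 14 plate. The plates had 40.9, 11.2, 7.32, 11.4 and 38.1 CPM at IR day 1, 149, 195, 0 and 78.5 at IR day 3, 477 and 283 at IR day 14, and 68.0, 68.6, 69.9, 61.8 and 42.6 at MI day 3. Both IR day 14 plates were above all others, and no test of that group had been planned. Tgfb3 was higher at IR day 3 than at IR day 1 (log2 2.62 ± 0.55, adjusted p 0.0013), although IR day 3 replicate 5, with 5 wells, had no UMI. The Tgfb3 call was lost without IR day 3 replicate 4 (1.80, adjusted p 0.0922), with at least 10 wells per plate (1.90, adjusted p 0.145) and with thinned wells (1.24, adjusted p 0.303). MI against IR day 3 did not pass (-0.84 ± 0.38, adjusted p 0.186) except without IR day 3 replicate 5 (-1.22, adjusted p 0.0234), with at least 10 wells per plate (-1.19, adjusted p 0.0157) and with wells of at least 2000 UMIs (-1.18, adjusted p 0.0437).

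**Figure D1:**
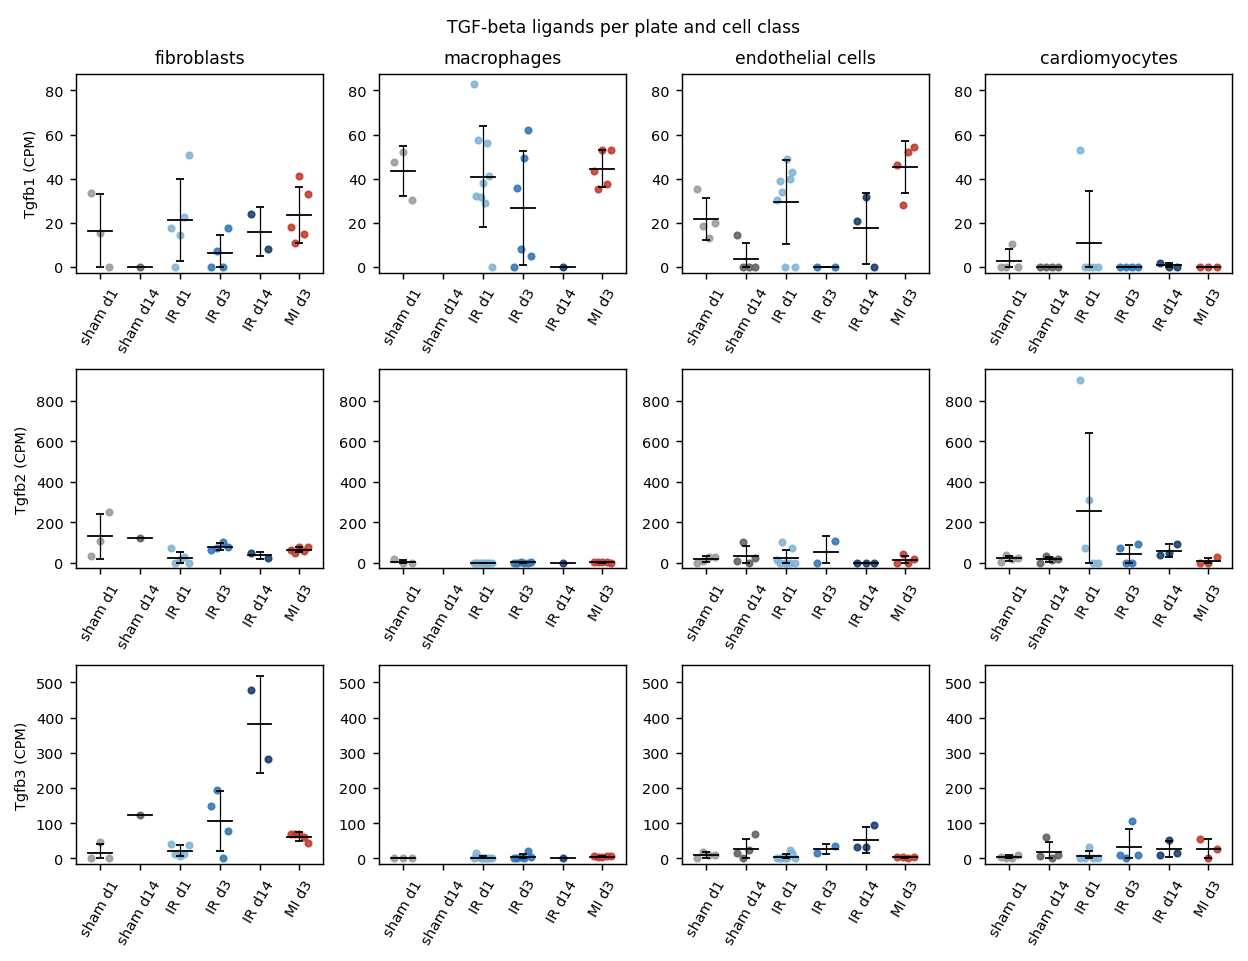
Levels of Tgfb1, Tgfb2 and Tgfb3 in CPM (linear vertical axis, the same within a row) by group (horizontal axis) in 4 cell classes. Points are plates with at least 5 wells, horizontal lines means, and bars 1 SD drawn no lower than 0. Tgfb1 reached 82.7 CPM in macrophages, 54.3 in endothelial cells, 53.1 on 1 cardiomyocyte plate and 50.8 in fibroblasts, Tgfb3 was highest in fibroblasts of IR day 14, at 477 and 283 CPM, and the IR day 1 cardiomyocyte plate at 902 CPM of Tgfb2 stood apart.

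Tgfbr1 (chr4:47353222-47414931, plus strand) encodes the type I receptor. Macrophages held 49.28% of its 2295 UMIs and fibroblasts 35.73%. Pooled Tgfbr1 levels at MI day 3 were 267 CPM (196 to 356) in neutrophils, 96.0 (88.8 to 104) in fibroblasts, 91.4 (84.7 to 98.5) in macrophages, 39.4 (28.8 to 52.8) in endothelial cells and 22.1 (7.17 to 51.6) in cardiomyocytes. Fibroblasts and macrophages did not differ beyond their intervals, nor did endothelial cells and cardiomyocytes. The MI neutrophil plates had 405, 149, 234, 246 and 313 CPM, all above every MI macrophage plate.

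Tgfbr1 rose in macrophages between IR day 1 and day 3. The IR day 1 plates had a lowest value of 47.5, a median of 70.0 and a highest of 184 CPM, and the IR day 3 plates 71.0, 157 and 214. The groups overlapped: 4 of 6 day 3 plates lay within the day 1 range, and after replicate 9 of day 1 (184 CPM) the next highest day 1 plate was replicate 7 (104 CPM). The Tgfbr1 log2 fold change was 0.97 ± 0.27 (adjusted p 0.00882), and the call was lost without IR day 3 replicate 7 (0.84, adjusted p 0.0584). The MI plates, at 101, 90.3, 95.9, 78.7 and 90.4 CPM, did not pass against IR day 3 (-0.66 ± 0.24, adjusted p 0.0931). That Tgfbr1 difference passed in 6 of the alternatives, with adjusted p from 0.00131 (DESeq2, log2 -0.80) to 0.0439 (Leiden resolution 2, -0.64). The sham day 1 plates had 174, 122 and 91.6 CPM.

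Tgfbr2 (chr9:116084293-116175360, minus strand) encodes the type II receptor that binds the ligand. Its 3818 UMIs were shared between macrophages (41.85%), fibroblasts (35.23%) and endothelial cells (16.16%), with 1.52% in cardiomyocytes. It rose between IR day 1 and day 3 in both fibroblasts and macrophages. In macrophages the IR day 1 plates had a lowest value of 0, a median of 28.9 and a highest of 146 CPM, and the IR day 3 plates 114, 209 and 429, so only the day 3 plates at 114 and 124 lay within the day 1 range. The Tgfbr2 log2 fold change was 1.59 ± 0.33 (adjusted p 0.000624), and among the alternatives it was lost with Leiden resolution 2 (0.80, adjusted p 0.143). MI macrophage plates had 138, 133, 134, 132 and 128 CPM, which did not pass against IR day 3 (-0.58 ± 0.31, adjusted p 0.292) except with only these groups in the fit (-0.57, adjusted p 0.0417).

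In fibroblasts, Tgfbr2 was at 537, 347, 288 and 305 CPM on the sham plates, 58.4, 78.2, 95.1, 256 and 12.7 at IR day 1, 363, 332, 227 and 218 at IR day 3, 215 and 162 at IR day 14, and 128, 185, 128, 134 and 119 at MI day 3. IR day 3 and IR day 1 overlapped through 1 plate, IR day 1 replicate 7. The Tgfbr2 log2 fold change between them was 1.37 ± 0.42 (adjusted p 0.028). It was lost without IR day 1 replicate 6 (1.32, adjusted p 0.0602) or 9 (1.14, adjusted p 0.0583), without IR day 3 replicate 4 (1.14, adjusted p 0.135) and with only these groups in the fit (1.41, adjusted p 0.0619). All MI plates lay below all sham and all IR day 3 plates, at pooled ratios of 0.387 (exact interval 0.299 to 0.509) and 0.464 (0.389 to 0.557). Yet neither difference passed with the main scaling (-0.74 ± 0.45, adjusted p 0.298, and -0.79 ± 0.38, adjusted p 0.214). Both passed with RLE scaling (-1.37, adjusted p 0.0473, and -1.18, adjusted p 0.0409) and with DESeq2 (-1.37, adjusted p 0.033, and -1.18, adjusted p 0.0471). Against IR day 3, Tgfbr2 also passed with at least 10 wells per plate (-1.01, adjusted p 0.0104) and with only these groups in the fit (-0.91, adjusted p 0.0178).

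Endothelial cells had more Tgfbr2 in MI than in sham. The MI plates had 309, 250, 305 and 371 CPM, the sham day 1 plates 118, 121, 171 and 138, and the sham day 14 plates 71.7, 205, 226 and 114. The groups did not overlap. The Tgfbr2 log2 fold change was 1.25 ± 0.34 (adjusted p 0.00386). It was lost with wells thinned to 3000 UMIs (0.63, adjusted p 0.446), and no other alternative ended the call. Macrophage RNA at the share of its markers in these MI wells would carry 7.78 CPM of Tgfbr2 against the 305 measured, and the source was not tested. Cardiomyocyte markers moved the other way: their sum on endothelial plates had a median of 15278 CPM in sham day 1, 26874 in sham day 14 and 169 in MI, and their part in the result was not tested. IR day 1 endothelial plates, with a lowest value of 38.3, a median of 152 and a highest of 354 CPM, did not pass against sham day 1 (adjusted p 0.959).

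Tgfbr3 (chr5:107106570-107289629, minus strand) encodes betaglycan, the co-receptor. Fibroblasts held 64.16% of its 1398 UMIs, endothelial cells 14.45% and cardiomyocytes 11.30%, and macrophages of sham and IR day 1 had none. In fibroblasts it fell after MI. The sham plates had 570, 604, 396 and 183 CPM, IR day 1 plates 169, 78.2, 219, 222 and 76.3, IR day 3 plates 192, 79.5, 126 and 78.5, IR day 14 plates 167 and 267, and MI plates 78.7, 75.9, 67.6, 106 and 80.0. The MI plates did not overlap sham, at a pooled ratio of 0.178 (exact interval 0.140 to 0.229). The fitted Tgfbr3 log2 fold change was a smaller fall, at -1.38 ± 0.43 (adjusted p 0.0284), with the median of all genes fitted at 1.063. The lowest sham value was that of the only day 14 plate, and against it alone the difference was -0.65 (adjusted p 0.697), a fit that assumes this 1 plate to vary like the other groups. The call was also lost without sham day 1 replicate 3 (-1.23, adjusted p 0.0688), with thinned wells (-0.82, adjusted p 0.405) and with replicate number as a block. At IR day 3 the pooled Tgfbr3 ratio to sham was 0.212 (0.143 to 0.309). The fitted difference did not pass (-1.28 ± 0.49, adjusted p 0.28), but did against day 1 sham alone (-2.02, adjusted p 0.0151) and with DESeq2 (-1.53, adjusted p 0.0281).

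In cardiomyocytes Tgfbr3 was at 50.2, 78.5, 63.2 and 148 CPM on sham day 1 plates and 63.5, 60.7, 37.9 and 18.5 on sham day 14 plates, and had no UMI on any of the 3 MI plates, which held 18 wells. The Tgfbr3 difference passed (adjusted p 0.00015) and kept its call in every alternative that tested it, which the default count filter did not. Because MI was at 0, the fitted fold depends on the prior count. With 3 UMIs over these MI plates Tgfbr3 would be 3.96-fold lower than pooled sham, a value that leaves out counting error in sham. Over all 23 MI wells 1 UMI was found, a pooled level of 4.42 CPM (0.112 to 24.6), against 75.3 (55.1 to 100.4) in sham day 1 and 44.0 (27.2 to 67.2) in sham day 14. The intervals did not overlap. IR day 3 plates had 47.8, 0, 35.8 and 42.1 CPM and IR day 14 plates 42.4, 52.4 and 34.1, and neither passed against sham. In endothelial cells all IR day 1 plates, up to 76.7 CPM, lay below the sham day 1 plates (82.4 to 129), and the difference did not pass (log2 -1.48 ± 0.52, adjusted p 0.0803).

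**Figure D2:**
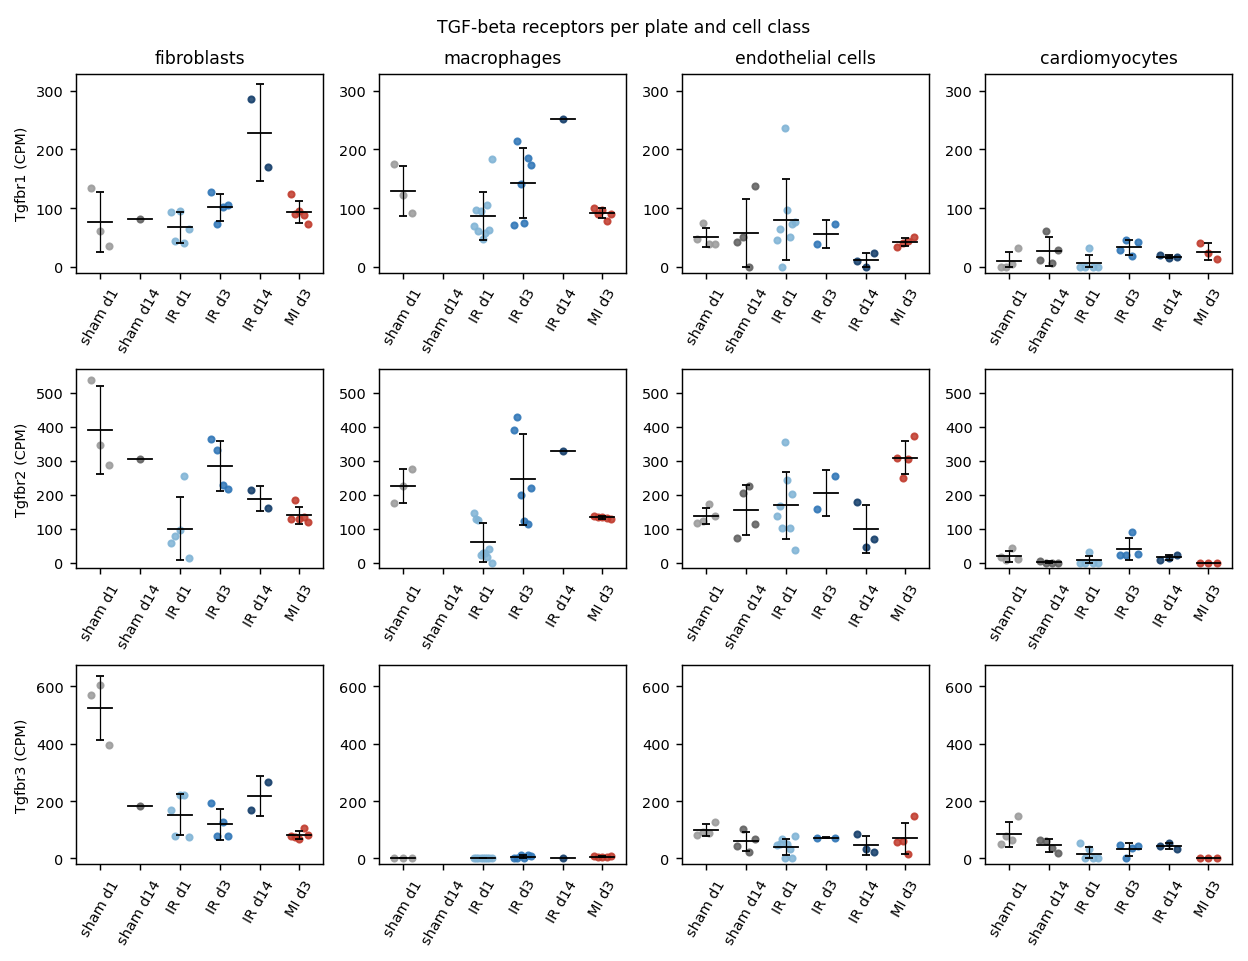
Levels of Tgfbr1, Tgfbr2 and Tgfbr3 in CPM (linear vertical axis, the same within a row) by group (horizontal axis) in 4 cell classes. Points are plates, lines means and bars 1 SD drawn no lower than 0. Endothelial Tgfbr2 in MI (250 to 371 CPM) lay above every sham plate, and fibroblast Tgfbr3 in MI (67.6 to 106 CPM) below every sham plate.

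Tgfbi (chr13:56609523-56639562, plus strand) encodes the matrix protein named for TGF-beta induction, although no TGF-beta was applied here and its induction was not measured. Macrophages held 83.29% of its 19412 UMIs, fibroblasts 7.26%, endothelial cells 4.33% and neutrophils 2.84%. In macrophages it fell between IR day 1 and day 3. The IR day 1 plates had a lowest value of 1302, a median of 2186 and a highest of 3417 CPM, and the IR day 3 plates 628, 852 and 1810. The 2 highest day 3 plates lay within the day 1 range. The Tgfbi log2 fold change was -1.36 ± 0.25 (adjusted p 9.22e-05), and the call held in every alternative run. MI plates had 1634, 1621, 1585, 1371 and 1438 CPM, which against IR day 3 did not pass (0.82 ± 0.27, adjusted p 0.0525). That Tgfbi difference passed in 8 alternatives, with adjusted p from 0.00766 (only these groups in the fit, log2 0.84) to 0.0351, among them without IR day 3 replicate 1 (0.97, adjusted p 0.0235) or 3 (0.90, adjusted p 0.0351).

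In fibroblasts Tgfbi moved the other way, and the difference between the classes passed its own test (log2 3.52, adjusted p 0.000112). The IR day 1 plates had 23.4, 11.2, 58.5, 148 and 89.0 CPM and the IR day 3 plates 42.7, 495, 278 and 209, so 3 of 4 day 3 plates were above all day 1 plates. The Tgfbi log2 fold change was 2.08 ± 0.51 (adjusted p 0.00632). It was lost without IR day 3 replicate 4 (1.29, adjusted p 0.166), with at least 10 wells per plate (3.73, adjusted p 0.0683) and with thinned wells (1.31, adjusted p 0.28). All 9 macrophage markers were detected in these wells, with a summed level of 14.6 to 250 CPM at IR day 1 and 50.5 to 2840 at IR day 3. At their share in IR day 3 fibroblasts, macrophage RNA would carry 105 CPM of Tgfbi against the 364 measured, and the source was not tested. Sham plates had 168, 181 and 144 CPM at day 1 and 549 on the day 14 plate, where macrophage markers summed to 3416 CPM, IR day 14 plates 692 and 186, and MI plates 93.6, 217, 167, 134 and 132, and no comparison of Tgfbi with sham passed in fibroblasts.

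Endothelial cells of MI day 3 carried more Tgfbi than those of sham. The MI plates had 655, 635, 81.9 and 714 CPM, the sham day 1 plates 23.5, 0, 145 and 29.7, and the sham day 14 plates 14.3, 0, 11.9 and 297. Only MI replicate 3 lay within the sham range. The pooled ratio was 8.87 (exact interval 6.71 to 11.9) and the Tgfbi log2 fold change 3.18 ± 0.50 (adjusted p 5.94e-07), lost with DESeq2 (2.92, adjusted p 0.0634). The 9 macrophage markers summed to 365 to 923 CPM in MI, 23.6 to 566 in sham day 1 and 28.7 to 3386 in sham day 14. At their MI share, macrophage RNA would carry 90.0 CPM of Tgfbi against the 592 measured. That value assumes the average macrophage. At Leiden resolution 2, Tgfbi was among the leading genes of a macrophage cluster with 57 MI wells, in which 4 of the 9 markers were raised. The source of Tgfbi in endothelial wells was not tested.

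In cardiomyocytes Tgfbi was higher at IR day 3 than in sham and at IR day 14. Sham plates had between 0 and 12.6 CPM, IR day 1 plates 159, 140, 125, 249 and 0, IR day 3 plates 53.7, 90.7, 107 and 68.4, IR day 14 plates 10.6, 0 and 5.68, and MI plates 13.6, 69 and 39.9. IR day 3 did not overlap sham or IR day 14. The Tgfbi log2 fold change was 2.97 ± 0.60 for IR day 3 against sham (adjusted p 7.79e-05) and -2.96 ± 0.67 for IR day 14 against IR day 3 (adjusted p 0.00113). Both calls were lost with replicate number as a block. Macrophage markers on the same plates summed to 272 to 1468 CPM (median 1205) at IR day 3, 125 to 1060 (median 144) at IR day 1, 34.7 to 406 in sham, 38.1 to 84.8 at IR day 14 and 177 to 460 in MI. Neutrophil markers, 6 of 7 found, had a median sum of 1151 CPM (125 to 1184) at IR day 1, 30.6 at IR day 3, 208 in sham day 1, 76.6 in sham day 14, 99.5 at IR day 14 and 13.6 in MI, and the part of either cell type in Tgfbi was not tested. Macrophage RNA at that IR day 3 share would carry 65.4 CPM of Tgfbi, and 61.5 were measured. Neutrophils had 1005 CPM (884 to 1137) at IR day 1 and 1753 (1561 to 1963) in MI, where macrophage RNA at the markers' share would carry 853 and 354 CPM of Tgfbi. However, 1 macrophage marker was raised in the neutrophil cluster itself, so that share need not be macrophage RNA. The source of Tgfbi in these wells was not tested.

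Ltbp2 (chr12:84783212-84876532, minus strand) was the member most restricted to 1 class, with 95.67% of its 3392 UMIs in fibroblasts. Among plates with at least 5 fibroblasts, it was not detected in sham day 1, low in sham day 14 and present on every plate after injury. The sham day 1 plates had no UMI and the sham day 14 plate had 40.7 CPM, from 2 UMIs. The plates had 344, 112, 358, 205 and 216 CPM at IR day 1, 277, 311, 126 and 445 at IR day 3, 740 and 729 at IR day 14, and 310, 503, 470, 337 and 317 at MI day 3. None overlapped sham, and both IR day 14 plates were above all others. The pooled ratio of Ltbp2 to sham was 28.1 (exact interval 7.64 to 234) at IR day 3 and 34.1 (9.42 to 281) at MI day 3. Both passed the test (adjusted p 0.00111, fitted log2 6.51 ± 1.05, and adjusted p 7.54e-06, fitted log2 7.08 ± 0.98), where the fitted size depends on the prior count because sham had 2 UMIs. Against the 1 plate of day 14 sham alone, assumed to vary like the other groups, the IR day 3 difference did not pass (3.19, adjusted p 0.553), and the MI call held in every alternative run. Over all 15 sham day 14 fibroblasts, 2 wells had Ltbp2, 1 of them in the plate deposited as 2 tables, whose mean was 7 UMIs (1038 CPM in that single well). With that mean the pooled Ltbp2 level was 98.2 CPM (44.9 to 186) from 9 UMIs, against 394 CPM (379 to 409) in MI, while 5 UMIs were counted when 1 of both deposits was read. IR day 3 did not differ from IR day 1 (0.32 ± 0.38, adjusted p 0.63) or from MI (0.57 ± 0.36 for MI against IR day 3, adjusted p 0.372) past the threshold.

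Low Ltbp2 counts appeared in cardiomyocytes after injury, in 15 UMIs at IR day 3, 13 at IR day 14 and 4 in MI against 1 in all sham wells. The plates had 13.4, 0, 0 and 31.6 CPM at IR day 3 and 27.2, 23.0 and 13.3 in MI, and sham day 1 replicate 3 had 5.27. The Ltbp2 ratio to sham was 16.9 (exact interval 2.60 to 713) at IR day 3 (adjusted p 0.0339) and 22.6 (2.23 to 1111) in MI (adjusted p 0.0259). Fibroblast RNA at the share of its 8 markers in these wells would carry 14.4 CPM of Ltbp2 at IR day 3 against the 15.6 measured, and 16.7 in MI against 20.8. The same calculation gave more Ltbp2 than was measured in MI endothelial cells (17.8 against 6.34) and MI macrophages (17.6 against 5.31). The source of Ltbp2 in cardiomyocytes was not tested. The IR day 3 call was lost without any of IR day 3 replicate 4, sham day 1 replicates 1 and 2 and sham day 14 replicates 1, 5 and 8 (log2 3.28 to 3.43, adjusted p 0.0544 to 0.114), and the MI call without MI replicate 2 (3.37, adjusted p 0.112). Both Ltbp2 calls were lost against day 1 sham alone (2.60, adjusted p 0.231, and 2.70, adjusted p 0.121) and with wells of at least 2000 UMIs (3.25, adjusted p 0.142, and 3.67, adjusted p 0.089), and the first against day 14 sham alone (4.22, adjusted p 0.152). Both were also lost with replicate number as a block. Ltbp2 was too low to be tested in either comparison with the default count filter, Leiden resolution 2 or only the groups compared, nor at IR day 3 without IR day 3 replicate 7, and DESeq2 gave it no adjusted p.

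**Figure D3:**
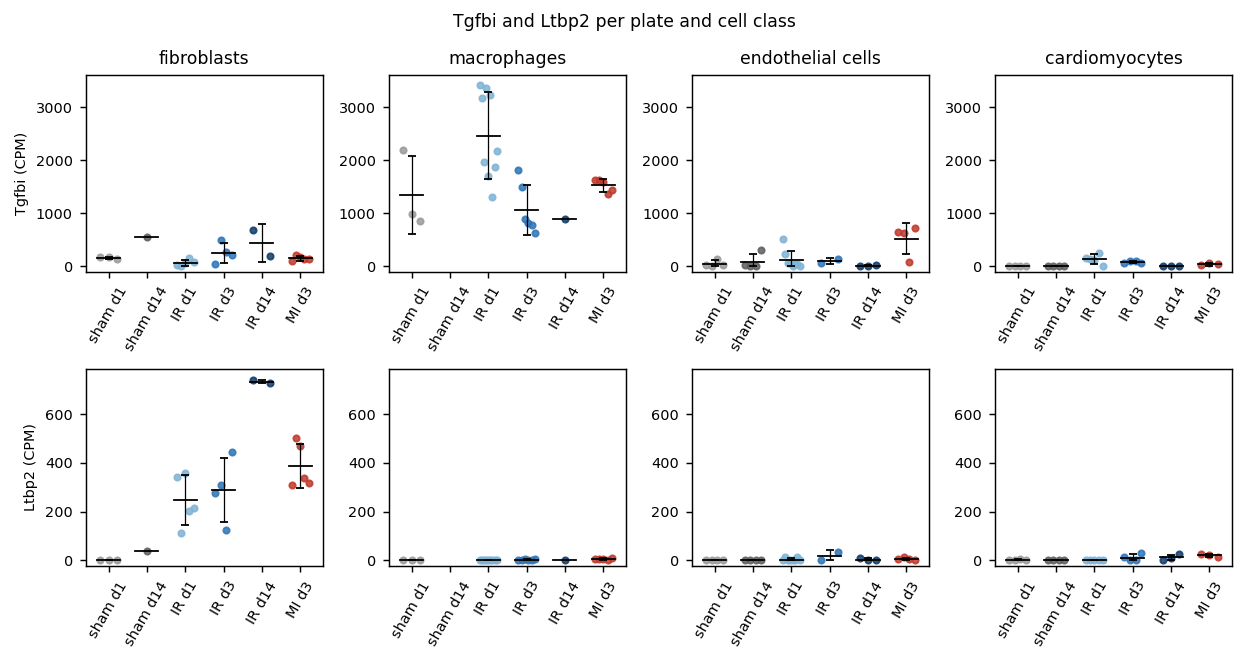
Levels of Tgfbi and Ltbp2 in CPM (linear vertical axis, the same within a row) by group (horizontal axis) in 4 cell classes. Points are plates, lines means and bars 1 SD drawn no lower than 0. Tgfbi was highest in macrophages of IR day 1 (1302 to 3417 CPM) and Ltbp2 was seen almost only in fibroblasts after injury (112 to 740 CPM).

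**Figure D4:**
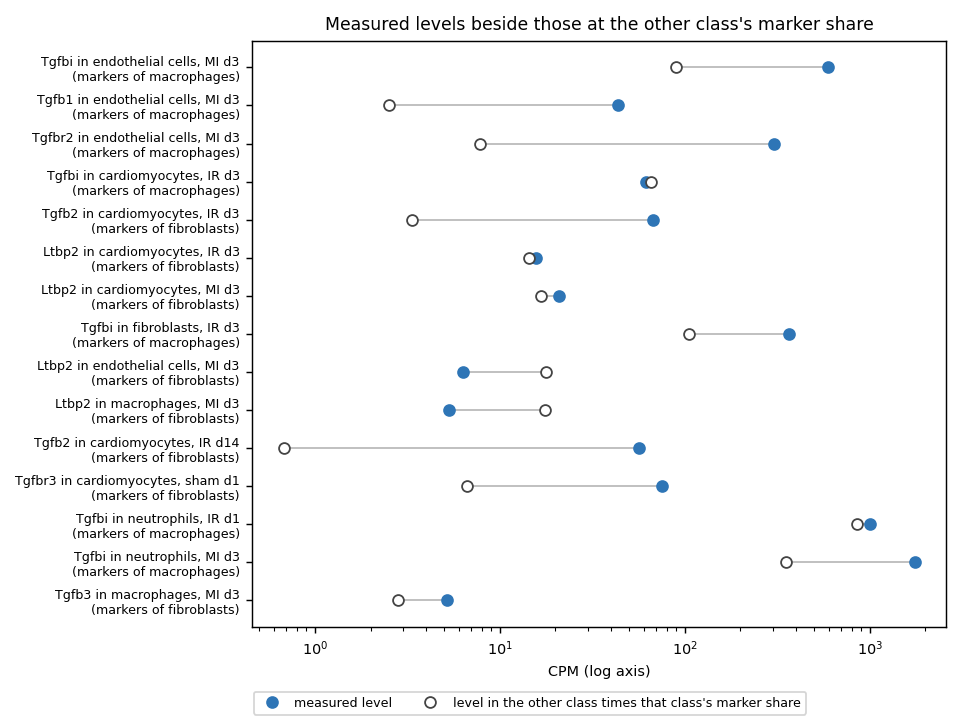
Measured pooled level in CPM of a gene in a class (filled points) beside the level that another class's RNA would carry at the share of that class's markers found there (open points), on a log axis, for the 15 pairs computed. The points were close for Tgfbi (61.5 and 65.4 CPM) and Ltbp2 (15.6 and 14.4) in cardiomyocytes of IR day 3, far apart for Tgfb2 in the same wells (67.7 and 3.34), and in reverse order for Ltbp2 in MI macrophages (5.31 and 17.6). The source of the RNA was not tested.

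The 8 genes were then counted per comparison and set beside all genes tested. In fibroblasts, 3 of 8 rose at IR day 3 against IR day 1 (Tgfb3, Tgfbr2 and Tgfbi), beside 12.7% of all genes called in either direction. Against sham, 1 of 8 (Ltbp2) passed at IR day 3, beside 0.648%, and 2 of 8 at MI day 3 (Ltbp2 higher, Tgfbr3 lower), beside 13.2%. Between MI and IR day 3, 0 of 8 passed, beside 8.1%, and 1 passed with DESeq2 while 3 had an unadjusted p under 0.05. In macrophages, where 5 of the 8 could be tested, 4 passed at IR day 3 against IR day 1 (Tgfbr1 and Tgfbr2 higher, Tgfb1 and Tgfbi lower), beside 17.4%, and 1 (Tgfb1) for MI against IR day 3, beside 7.18%. In endothelial cells 7 could be tested, and 3 rose in MI against sham (Tgfb1, Tgfbr2 and Tgfbi), beside 19.2%. None of the 7 passed at IR day 1 against sham day 1, beside 5.42%, and 1 had an unadjusted p under 0.05. At IR day 14 against sham day 14, edgeR called 0% of all genes and 0 of 7 members, while 565 genes had an unadjusted p under 0.05 and DESeq2 called 0.

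In cardiomyocytes 7 of the 8 could be tested. At IR day 3 against sham, 3 rose (Tgfb2, Tgfbi and Ltbp2), beside 4.25% of all genes. At IR day 14 against sham day 14 none passed, beside 0.151%, with 3 members at an unadjusted p under 0.05 and 0 called by DESeq2. At IR day 14 against IR day 3, 1 fell (Tgfbi), beside 2.25%, and at MI day 3 against sham 1 rose and 1 fell (Ltbp2 and Tgfbr3), beside 29.1%. Whether a change differed between classes, a test added after seeing the data, was called for 2 members (Tgfbi and Tgfbr3) between fibroblasts and macrophages for IR day 3 against IR day 1, beside 0.98% of all genes, and for 1 (Tgfbi) between fibroblasts and endothelial cells for MI against sham, beside 1.38%. It was called for 0 members between fibroblasts and macrophages for MI against IR day 3, beside 0.199%, and between cardiomyocytes and fibroblasts for IR day 3 and for MI against sham, beside 0.0625% and 6.94%, while 1, 3 and 2 of the 8 members had an unadjusted p under 0.05 in edgeR. Comparisons that share a group, such as IR day 3 and MI against the same sham plates, share those plates.

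The scaling of libraries moved the centre of some comparisons. In fibroblasts of MI against sham, all genes tested had a median log2 change of 1.063 and 80.1% of the calls were higher, against 0.504 and 42.3% with RLE scaling. Median changes also moved by over 0.1 for fibroblasts at MI against IR day 3 (0.243 to -0.093, higher calls 57.7% to 21%) and IR day 3 against sham (0.744 to 0.503, 68.8% to 51.2%), and for endothelial cells in MI against sham (0.16 to -0.042, 58.3% to 45.8%), at IR day 1 (-0.152 to -0.05, 30.2% to 42.0%) and at IR day 14 (0.051 to -0.065). They did so too for cardiomyocytes at IR day 14 against IR day 3 (0.136 to 0.007, 31.1% to 20.8%), and for macrophages in MI against IR day 3 the higher calls went from 55.6% to 42.7%. No called change of the 8 genes turned direction with RLE scaling.

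**Figure D5:**
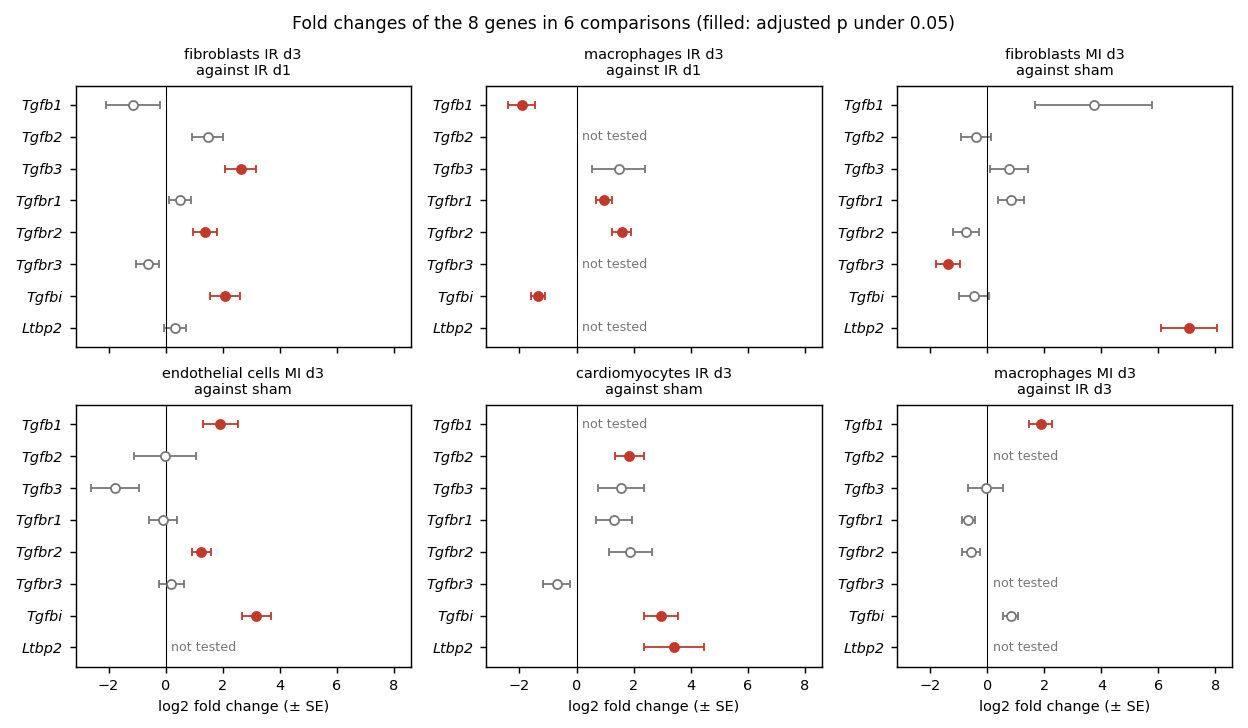
Log2 fold changes (horizontal axis) of the 8 genes (vertical axis) in 6 comparisons, with bars of 1 SE. Filled points passed at an adjusted p under 0.05. Tgfbi had opposite signs in fibroblasts (2.08) and macrophages (-1.36) between IR day 1 and day 3.

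Genes of the pathway beyond the 8 were counted in 4 lists of 60 genes in all. The counts below stand beside shares of all genes called, in either direction, of 13.2% (fibroblasts, MI against sham), 0.648% (IR day 3 against sham), 12.7% (IR day 3 against IR day 1) and 8.1% (MI against IR day 3), 17.4% and 7.18% (macrophages, IR day 3 against IR day 1 and MI against IR day 3), 5.42% and 19.2% (endothelial cells, IR day 1 and MI against sham), and 4.25%, 2.25% and 29.1% (cardiomyocytes, IR day 3 against sham, IR day 14 against IR day 3 and MI against sham). The list of TGF-beta target genes, many of which encode matrix proteins, had members that passed the test in fibroblasts. Of its 15 genes, 9 rose and 2 fell in MI against sham (median log2 2.45, all genes 1.063), 7 rose at IR day 3 against sham (3.90, all genes 0.744), and 8 rose and 2 fell at IR day 3 against IR day 1 (1.47, all genes 0.113). Between IR day 1 and IR day 3 fibroblasts, the median summed level went from 15534 to 80027 CPM for the 8 fibroblast markers, from 176 to 4563 for the 8 cardiomyocyte markers and from 101 to 400 for the 9 macrophage markers. In sham day 1 these sums were 65313, 4676 and 90.6 CPM, in the sham day 14 plate 57625, 4839 and 3416, and in MI 34136, 143 and 311, and their part in the counts was not tested. Timp1, an inhibitor of metalloproteinases, averaged 4145 ± 463 CPM over the 5 MI plates (SD) and 89.4 ± 99.3 over the 3 plates of sham day 1. Against both sham groups, as tested, its log2 fold change in MI was 5.99 ± 0.80. Postn, the matrix protein periostin, had 5241 ± 2428 CPM (n = 4) at IR day 3 and 768 ± 210 (n = 5) in MI, and was 1 of 3 targets that were lower in MI than at IR day 3 (log2 -2.57 ± 0.50, adjusted p 0.000996), with Cilp and Eln. Timp1 was higher in MI than at IR day 3 (1.74 ± 0.47, adjusted p 0.0182).

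Target genes also rose in endothelial cells, 9 of 14 in MI (median log2 1.89, all genes 0.16) and 4 of 14 at IR day 1, among them Acta2 at both (1.76 ± 0.55 and 2.78 ± 0.67). In endothelial cells the fibroblast markers had a median sum of 956 CPM in sham day 1, 918 in sham day 14, 277 at IR day 1 and 1533 in MI, the macrophage markers 282, 113, 226 and 606, and the cardiomyocyte markers 15278, 26874, 2746 and 169, and their part in these counts was not tested. In cardiomyocytes 7 of 12 rose at IR day 3 (median 2.44, all genes -0.034), led by Cthrc1, Postn and Timp1, and 4 of 12 fell again by IR day 14 (Fn1, Timp1, Cthrc1 and Postn). Fibroblast markers in cardiomyocytes had a median sum of 703 CPM in sham day 1, 494 in sham day 14, 2911 at IR day 3, 1021 at IR day 14 and 1676 in MI, and their part in these counts was not tested. In MI cardiomyocytes 6 of 12 rose and 1 fell. In macrophages 2 of 13 targets rose and 3 fell at IR day 3 against IR day 1, with Postn and Col8a1 higher and Fn1 and Timp1 among those lower, and 4 rose and 1 fell in MI against IR day 3.

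Genes of latency and activation, such as latent TGF-beta binding proteins, integrins and proteases, changed in both directions. In fibroblasts 3 of 19 rose and 3 fell in MI against sham (all genes 13.2%). Thbs1, a matrix activator of latent TGF-beta, had 578 ± 153 CPM (SD, n = 5) against 38.3 ± 6.21 (n = 3) in sham day 1. Against both sham groups its log2 fold change was 4.08 ± 0.79, while Ltbp4 (log2 -2.91 ± 0.39), Mmp2 (-2.86 ± 0.45) and Dcn (-2.48 ± 0.32) fell. At IR day 3 1 of 19 rose and 1 fell against sham (Thbs1 and Ltbp4), 6 rose and 2 fell against IR day 1, and 1 rose and 3 fell in MI against IR day 3. Dcn, which encodes decorin, stands both in this list and among the fibroblast markers. In endothelial cells of MI 9 of 18 rose and 1 fell, among them Thbs1 (log2 5.46 ± 0.79), Mmp14 (4.39 ± 0.45) and Mmp9, which had no UMI in sham, and at IR day 1 2 rose and 2 fell. In macrophages 9 of 18 rose and 3 fell at IR day 3 against IR day 1, where Thbs1 fell from 3287 ± 2407 CPM (n = 9) to 183 ± 168 (n = 6), and 4 rose in MI against IR day 3, Mmp9, Plau, Thbs1 and Bgn. Fibroblast markers in macrophages had a median sum of 376 CPM at IR day 1, 1138 at IR day 3 and 1378 in MI. Neutrophil markers there had 764, 99.25 and 558 CPM, and Mmp9 was among the leading genes of the neutrophil cluster. The part of either cell type was not tested. In cardiomyocytes 3 of 15 rose at IR day 3. In MI 1 rose and 8 fell (all genes 29.1%), among them Ltbp4, Ltbp3 and Itgb6, each with no UMI in MI. Endothelial markers in cardiomyocytes had a median sum of 417.97 CPM in sham day 1, 372.08 in sham day 14 and 68.98 in MI. Mural markers had 341.84, 329.42 and 13.61 CPM, and cardiomyocyte markers 95784, 120409 and 58960. Fibroblast markers (702.99, 493.52 and 1676 CPM) and macrophage markers (114.5, 76.64 and 372.44) were higher in MI. The part of these cell types in the counts was not tested.

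Among the 7 to 8 other receptors tested per class, the calls were Eng, Bmpr1a and Bmpr2 in cardiomyocytes of MI against sham (3 of 7, all genes 29.1%) and Acvr2b in endothelial cells of MI against sham, all lower. In MI cardiomyocytes the endothelial and mural marker sums given above were lower too, and their part was not tested. Of 11 to 14 SMAD genes and regulators, Pmepa1, a feedback inhibitor induced by TGF-beta signaling, was higher in MI in macrophages against IR day 3 (log2 2.02 ± 0.40), in endothelial cells against sham (2.3 ± 0.38) and in cardiomyocytes against sham (1.87 ± 0.38), and lower in macrophages at IR day 3 than at IR day 1 (-1.19 ± 0.43, adjusted p 0.0499). Tgif1 was higher in endothelial cells of MI (1.93 ± 0.65), and in MI cardiomyocytes Smad4 was higher (1.68 ± 0.49) and Map3k7 lower (-1.60 ± 0.65, adjusted p 0.0489). Smad7, an inhibitory SMAD, was lower in endothelial cells of MI (-1.42 ± 0.45, adjusted p 0.0155). Smad1 was higher in fibroblasts of MI than of IR day 3 (2.04 ± 0.56), and Smad6 was higher in fibroblasts of IR day 3 than of IR day 1 (3.46 ± 1.10).

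The genes whose levels were most like those of each member were found over 23 class-by-group means among 5989 genes, as Pearson's r of log2(CPM + 10). These points share plates and classes, and the values are a description. The genes like Ltbp2 included Postn (r 0.905) and Lox (0.903), and Tgfb3 was most like Col16a1 (0.878), Cilp (0.844) and Gas1 (0.831). Tgfbr3 was most like Phldb1 (0.927), the latency gene Ltbp1 (0.913) and Afap1 (0.906). Tgfbi was most like Cotl1 (0.915), Gpsm3 (0.9) and Basp1 (0.897), and Tgfb1 like Ssbp4 (0.841), Hnrnpd (0.836) and Eps8 (0.827). Tgfbr1 was most like Tnfrsf1b (0.88), Notch2 (0.878) and Dtx4 (0.877), Tgfbr2 like Acsl5 (0.916), D15Ertd621e (0.916) and Ifi27l1 (0.915), and Tgfb2 like Efna5 (0.795), Bcl9l (0.788) and Yipf3 (0.783).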

How the data were processed

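SORT-seq counts were read from 36 tables, 1 per plate, with genes in rows and wells in columns. Per the labels and the submitters' processing notes, the authors mapped reads with BWA to GRCm38 (mm10), and the deposited values are UMI counts, whole numbers reaching at most 4096. Versions, annotation and filters on reads are not given in the sources used here. The paper describes single-cell data of MI and sham hearts at day 3, and neither the IR hearts nor the day 1 and day 14 sham hearts.

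Wells with at least 1000 nuclear UMIs were kept, and 35 wells that copied a well of another plate, 19 of them above that depth, were left out. Mitochondrial genes, spike-ins, eGFP and Rn45s did not enter library sizes. Cells were clustered with scanpy 1.11.5 (2000 variable genes, 30 components, 15 neighbours, Leiden resolution 1, seed 1) without the 8 genes. A cluster was named where at least 3 markers of a list were raised at least 2-fold and were at least 2 times as many as those of any other list, except where its median depth was more than 3 times below that of its plates and none of the list's markers was among its 10 leading genes; doublets were not called. UMIs were summed per plate and class over at least 5 wells and tested in edgeR 4.0.16 (TMM, filterByExpr with a minimum count of 2 and a total of 10, quasi-likelihood F-test), with all groups of a class in 1 fit, and the script was tested on simulated data. The named genes were the 8 members, the called genes of 4 fixed pathway lists, and the 3 genes most like each member. A few genes that this rule names are not reported here. The members, lists and comparisons were chosen with earlier results of these data known. Alternatives were RLE scaling, other filters, at least 2000 UMIs per well or 10 wells per plate, Leiden resolution 2, a replicate block, 1 day of sham, only the groups compared, DESeq2 1.42.0, each plate left out, and, chosen after seeing the data, wells thinned to 3000 UMIs and tests of differences between classes. Gene positions are those of GENCODE M21 on GRCm38. Same-numbered plates did not deviate together (median correlation -0.012 to 0.024 per class), so numbers were not treated as pairs.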

Additional observations from a re-analysis of the deposited data

Results flagged for a closer look

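Among 37 class-by-group sets of 4 to 10 plates with at least 50 UMIs of a gene, 4 held a plate far from the others, where chance alone gives about 1 in 20. Macrophages of IR day 1 replicate 9 had 184.07 CPM of Tgfbr1, and the nearest plate 104.45. Fibroblasts of MI replicate 2 had 184.57 CPM of Tgfbr2, and the nearest plate 134.07. Endothelial cells of IR day 1 replicate 1 had 517.31 CPM of Tgfbi, and the nearest plate 232.46. Endothelial cells of MI replicate 3 had 81.929 CPM of Tgfbi, and the other 3 plates 635.3 to 713.73.

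Whether a gene changed differently in different classes was tested in edgeR for 40 gene-by-comparison pairs, a test chosen after seeing the data, and 3 passed. Of all genes, 0.0625% to 6.94% passed in the 5 fits. Between IR day 1 and day 3 the log2 fold change of Tgfbi was 3.521 higher in fibroblasts than in macrophages (adjusted p 0.000112), where it rose in the first and fell in the second. That of Tgfbr3 was -5.645 (adjusted p 0.0203) for the same difference, a size that depends on the prior count because macrophages of IR day 1 had no Tgfbr3 UMI. For MI against sham, the log2 fold change of Tgfbi was -3.617 in fibroblasts minus endothelial cells (adjusted p 0.0183). Classes of the same plates are not independent libraries.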

How the results depend on the processing

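Of 737 alternative values of the 31 fold changes that passed as reported or in an alternative, 646 kept their direction and side of the threshold, 59 lost the call, 32 gained it and 0 turned direction. Of 1285 alternative values of the fold changes that passed in none, 96 changed sign. Counts of the 8 genes called that moved by over 1.5 times were as follows, and the cause was not tested. With the replicate block, the count went from 2 to 1 in fibroblasts of MI against sham, from 1 to 0 in macrophages of MI against IR day 3, from 3 to 0 and from 1 to 0 in cardiomyocytes of IR day 3 against sham and of IR day 14 against IR day 3, and from 2 to 1 in cardiomyocytes of MI. With thinned wells it was 1 in fibroblasts of IR day 3 against IR day 1 (3 before), 1 in fibroblasts of MI against sham and 1 in endothelial cells of MI (3 before). Fibroblasts of MI against IR day 3 (0) gave 1 with RLE scaling, 2 with at least 10 wells, and 1 with 2000 UMIs, only the groups compared and DESeq2. At least 10 wells gave 1 for fibroblasts of IR day 3 against IR day 1. Fibroblasts of IR day 3 against sham (1) gave 2 against day 1 sham, 0 against day 14 sham and 2 with DESeq2, and those of MI 1 against day 14 sham. Macrophages of MI against IR day 3 (1) gave 2 with RLE scaling, 2 with no filter, 3 with 10 wells, 2 with 2000 UMIs, 3 with Leiden resolution 2 and 4 with only the groups compared. DESeq2 gave 1 in endothelial cells of MI. Cardiomyocytes of IR day 3 (3) gave 1 with the default filter, day 1 sham, day 14 sham and DESeq2, and those of MI (2) gave 1 with the default filter, 2000 UMIs, Leiden resolution 2, only the groups compared and DESeq2. The default filter left 1 of the 8 to be tested in cardiomyocytes, Tgfbi.

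Leaving out 1 plate gave 0 to 1 in fibroblasts of MI against IR day 3, 0 to 4 for IR day 3 against IR day 1 and 1 to 2 for MI against sham, 0 to 2 in macrophages of MI against IR day 3, 0 to 1 in endothelial cells of IR day 1, and 1 to 3 and 1 to 2 in cardiomyocytes of IR day 3 and MI against sham. Smaller moves are not listed. At least 10 wells per plate left no test for fibroblasts against sham and cardiomyocytes of MI. Calls over all genes, with their lowest and highest number under the alternatives, were 962 (374 to 1441) in fibroblasts for MI against IR day 3, 1511 (179 to 1762) for IR day 3 against IR day 1, 77 (4 to 273) for IR day 3 against sham and 1573 (229 to 2082) for MI against sham, the last 2 lowest against day 14 sham alone. They were 809 (362 to 1503) in macrophages for MI against IR day 3 and 1963 (678 to 2060) for IR day 3 against IR day 1, and 580 (291 to 618), 0 (0 to 8) and 2050 (860 to 2239) in endothelial cells for IR day 1, IR day 14 and MI against sham. In cardiomyocytes they were 365 (lowest 61, with the replicate block) for IR day 3, 13 (1 to 26) for IR day 14 and 2498 (1110 to 2537) for MI against sham, and 193 (22 to 267) for IR day 14 against IR day 3. Sparse counts left Tgfb2, Tgfbr3 and Ltbp2 untested in macrophages, Ltbp2 in endothelial cells and Tgfb1 in cardiomyocytes.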
